A study of Mus musculus with 8 samples.

Results

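The 40 genes described here encode the machinery of mitosis: the kinases and cyclins that start it, the proteins that shape and hold the chromosomes, the kinetochore and its checkpoint, the spindle, and the midzone and cleavage apparatus. They were listed by function, with earlier results of these data known, and matched to the arrays by gene symbol. Of the 40, 38 had a probe set, 1 each, among the 22206 probe sets of the series. Ccnb1 and Foxm1 had no probe set under their symbol in the probe-to-gene table used here and were not analysed here. Expression was measured on 1-colour arrays in the gut of 8 untreated mice, 4 knockouts and 4 wild-type littermates, joined in 4 sibling pairs. In the knockouts a Cre recombinase driven by the villin promoter removed the promoter and the start of Nfkbia, the gene of the NF-κB inhibitor IκBα, in the intestinal epithelium. Cells that do not express villin keep the gene, and the labels do not say whether the wild types carried the floxed allele or Cre. Siblings had the same age, 8 weeks in pairs 1 and 3, 11 weeks in pair 2 and 9 weeks in pair 4. Pair 1 was male and pair 2 female, pair 3 joined a male knockout to a female wild type, and pair 4 a female knockout to a male wild type. The series text speaks of snap-frozen duodenum and the sample labels of small intestine, and no step that isolates epithelium is described.

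A cell enters mitosis when cyclin-dependent kinase 1, bound to its A and B cyclins, is switched on by phosphatases of the Cdc25 family and by the Polo and Aurora kinases. The chromosomes then condense, microtubules attach to them at the kinetochores, and a checkpoint holds the anaphase-promoting complex in check until every chromosome is attached. In the gut most divisions take place among the progenitors of the crypts, and the mRNAs of these genes rise and fall with the cell cycle, so that a tissue sample draws them mainly from dividing cells. In such bulk samples a larger share of dividing cells and more mRNA per dividing cell cannot be told apart.

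Many of these genes are known to be held off outside the late cell cycle by a repressor complex, built on the MuvB core, that binds a promoter element called CHR, and to be driven by NF-Y bound at CCAAT boxes. RefSeq (GRCm38.p6) gave a promoter window for 32 of the 38 genes. The letters TTTGAA of the CHR element were searched on both strands from 150 bases before to 30 bases after the annotated start, and they occurred in 20 of the 32 genes (62.5%), against 9.91% of the 15691 genes with a probe set and a window. The letters CCAAT, also on both strands, occurred in 25 (78.1%) against 32.2%, and both motifs in 18 (56.2%) against 3.17%. In 1 window of a mitosis gene the matches overlapped. A match is a description of the letters and not a bound site. The windows of the 4 genes that rose, Kif23, Prc1, Mki67 and Top2a, are shown with those of Ccnb2 and Ect2, which did not pass the test, because all 6 hold both motifs. Each runs 5′ to 3′ on the gene's strand over 150 bases of upstream sequence and the 30 bases that open the annotated transcript, with matches to either motif in capitals.
Kif23, chr9:61946770-61946949, minus strand: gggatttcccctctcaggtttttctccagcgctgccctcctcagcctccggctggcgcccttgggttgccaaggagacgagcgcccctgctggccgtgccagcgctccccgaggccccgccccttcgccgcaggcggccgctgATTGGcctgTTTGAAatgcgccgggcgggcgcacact
Prc1, chr7:80294301-80294480, plus strand: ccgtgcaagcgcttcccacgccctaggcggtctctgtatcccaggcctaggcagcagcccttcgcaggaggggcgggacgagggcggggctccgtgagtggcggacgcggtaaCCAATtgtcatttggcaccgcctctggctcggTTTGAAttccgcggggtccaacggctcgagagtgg
Mki67, chr7:135716350-135716529, minus strand: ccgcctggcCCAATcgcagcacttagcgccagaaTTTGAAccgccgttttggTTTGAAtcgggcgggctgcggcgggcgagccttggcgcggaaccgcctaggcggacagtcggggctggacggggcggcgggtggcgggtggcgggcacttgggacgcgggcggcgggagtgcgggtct
Top2a, chr11:99024160-99024339, minus strand: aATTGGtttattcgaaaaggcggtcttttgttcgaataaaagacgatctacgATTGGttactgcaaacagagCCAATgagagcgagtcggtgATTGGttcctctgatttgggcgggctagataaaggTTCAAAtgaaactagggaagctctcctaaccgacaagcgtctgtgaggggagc
Ccnb2, chr9:70421525-70421704, minus strand: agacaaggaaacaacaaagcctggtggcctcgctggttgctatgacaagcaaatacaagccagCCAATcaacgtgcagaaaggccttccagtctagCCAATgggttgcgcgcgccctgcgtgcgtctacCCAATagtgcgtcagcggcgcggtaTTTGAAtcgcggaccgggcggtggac
Ect2, chr3:27153849-27154028, minus strand: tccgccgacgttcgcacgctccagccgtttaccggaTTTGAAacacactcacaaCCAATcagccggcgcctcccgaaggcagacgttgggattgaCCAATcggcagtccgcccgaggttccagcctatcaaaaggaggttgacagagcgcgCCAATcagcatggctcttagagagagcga

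Counted from the annotated start, with upstream bases negative, the CHR letters began near it in Kif23, at 3, in Prc1, at −5, and in Ccnb2, at 5. In Mki67 they began at −116 and −98, in Top2a at −23 and in Ect2 at −114. All 4 genes that rose held both motifs. Of the 16 genes that were higher in knockouts in all 4 pairs, 14 had a window and 9 of these held the CHR letters (64.3%), and of the others with a window 11 of 18 did (61.1%). CCAAT letters were found in 9 of the 14 (64.3%) and in 16 of the 18 (88.9%). Ndc80, Birc5, Mad2l1, Nusap1 and Nuf2 held neither motif in this window.

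**Figure D1:**
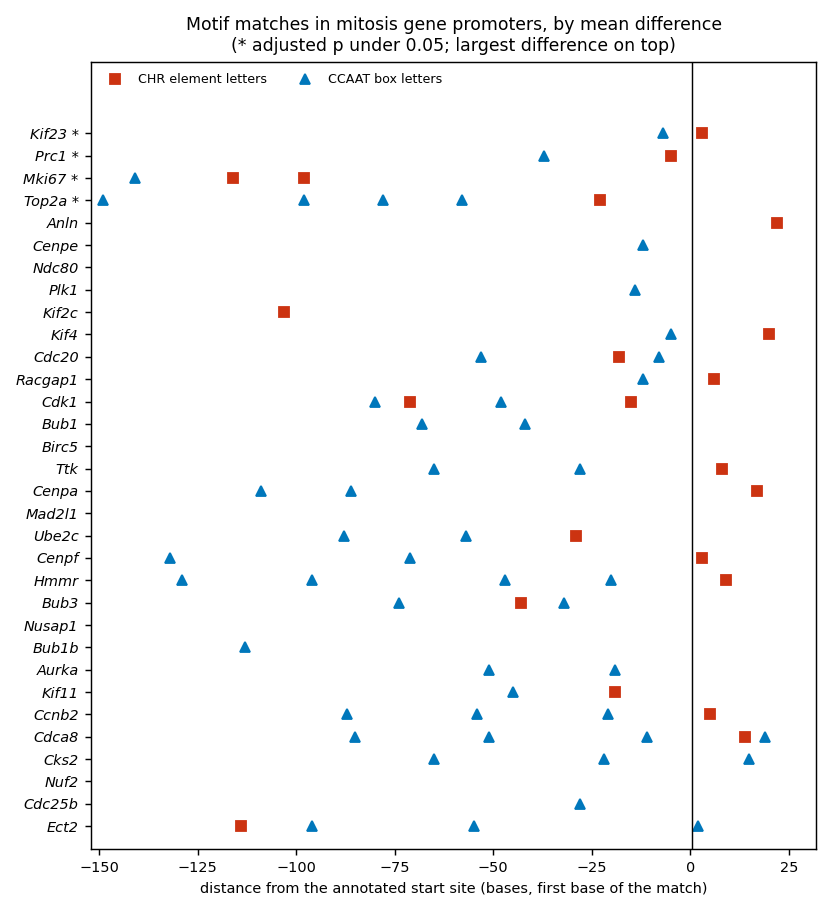
Matches to the CHR element (squares) and the CCAAT box (triangles) on either strand around the annotated start site of the 32 mitosis genes with a promoter window; the x axis gives the distance of the first base of a match from the start in bases, and genes are ordered by mean difference. Motifs are found from the top to the bottom of the order, in Kif23 as in Ect2.

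The deposited values are log2 expression values, and the array medians lay between 6.77 and 6.81. Nfkbia, which checks the labels, averaged 6.96 in knockouts and 9.61 in wild types, and the difference was −2.93, −3.26, −1.29 and −3.13 in pairs 1 to 4 (limma adjusted p = 0.0130). It stayed called without pair 3 (adjusted p = 0.00106), and had 0.0545, 0.0582 and 0.0512 without pairs 1, 2 and 4. The 18 enterocyte markers averaged between 9.86 and 14.2 per probe set. Most differences between pairs were absent from the deposited values: in 70.0% of all probe sets the 4 pair means lay within 0.05 of each other, and values of siblings mirrored each other around a common mean. The tests therefore used the differences inside pairs. Since siblings mirror each other around nearly equal pair means, a gene that is higher in all 4 pairs will mostly also have knockout and wild-type values that do not overlap, so that a lack of overlap, where it is stated, describes the values and adds no support. Some spread between pairs was left in the mitosis genes, of which 5 of 38 had pair means within 0.05, with the mean of pairs 1 and 2 above that of pairs 3 and 4 in 37 of 38 (97.4%) against 45.4% of all probe sets. Its median was 0.07 and the largest range of pair means was 0.14.

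Knockout was then compared with wild type. Kif23, Prc1, Mki67 and Top2a rose in knockouts, the first by 1.68-fold and the others by 1.42-fold to 1.43-fold, and no mitosis gene fell. Rises thus passed the test for 4 of 38 genes (10.5%), where 3.16% of all probe sets were called higher, and falls for 0 of 38, where 2.70% were called lower (limma with the sibling pair as a block, adjusted p under 0.05 over all 22206 probe sets). At an unadjusted p under 0.05 limma found 15 of 38 higher and 0 lower, against 13.2% higher and 14.2% lower among all probe sets. In all 4 pairs 16 of 38 were higher in the knockout (42.1% against 16.5% of all probe sets) and 0 were lower in all 4 (against 17.9%). Of these 16, 14 also had every knockout value above every wild-type value (36.8% of the 38, against 15.9% of all probe sets), which the evened pair means largely fix. The median difference of the 38 genes was 0.17 (log2) against −0.02 for all probe sets. However, centring each array on 9 housekeeping genes moved all probe sets by −0.20 and turned the median of the 38 to −0.03. Such a centring shifts every probe set alike, so the distance of 0.18 to the median of all probe sets could not change and adds no support. With that centring limma called 419 of the 22206 probe sets higher and 5461 lower. Among the mitosis genes Kif23 alone kept its rise. Ect2 was called lower, its difference having moved with the shift from −0.20 to −0.40. The 9 housekeeping genes had a median difference of 0.19 themselves, and 7 of them were higher in all 4 pairs (77.8%). All probe sets include 7194 that averaged below a background level of 5.65, the 95th percentile of the means of 1091 olfactory receptor probe sets. Of the 38 mitosis genes 2 lay below it. The mean differences of the 38 genes ran from −0.20 to 0.75.

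**Figure D2:**
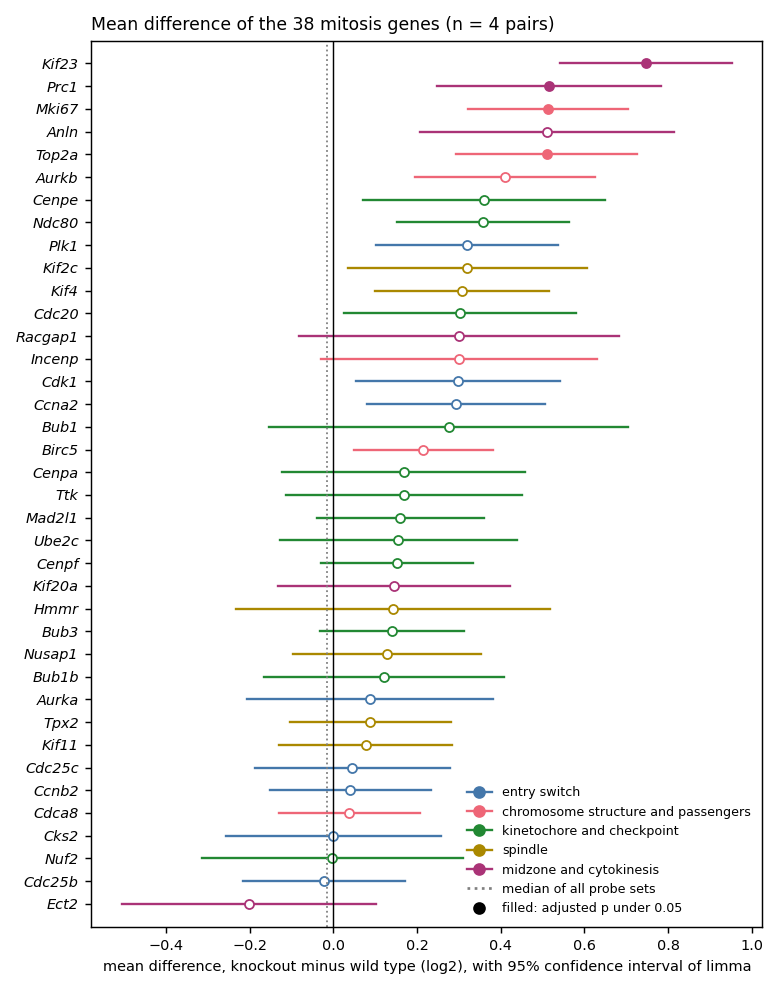
Mean difference between knockout and wild type (log2, n = 4 pairs) of the 38 mitosis genes, with the 95% confidence interval from limma as a line, coloured by role; filled points passed an adjusted p of 0.05, and the dotted line is the median of all probe sets. Most points lie right of 0, from −0.20 for Ect2 to 0.75 for Kif23, and the 4 filled points are Kif23, Prc1, Mki67 and Top2a.

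The midzone and cytokinesis genes held the largest differences. Kif23 encodes MKLP1, the kinesin of the centralspindlin complex that bundles midzone microtubules and recruits the cleavage machinery. Its values were 8.91, 9.01, 9.05 and 9.02 in the knockouts of pairs 1 to 4 and 8.39, 8.25, 8.15 and 8.21 in their siblings. The knockouts lay above the wild types, and the smallest within-pair difference was 0.52. The rise was 0.75 ± 0.162 (log2, SD of the 4 within-pair differences, limma adjusted p = 0.0124), and it was smallest in pair 1. Prc1, the microtubule bundler that builds the midzone, had 6.98, 6.92, 7.07 and 6.79 in knockouts and 6.48, 6.48, 6.19 and 6.55 in wild types. The groups did not overlap, and pair 3 had both the highest knockout and the lowest wild type. Its rise of 0.52 ± 0.268 only just passed the threshold (adjusted p = 0.0494).

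Anln, which encodes the scaffold anillin of the cleavage ring, had 6.23, 6.38, 5.97 and 6.05 in knockouts and 5.58, 5.50, 5.83 and 5.68 in wild types, again without overlap. The wild-type mean of Anln, 5.65, was no higher than the background level of 5.65, so its difference may be understated. Its mean difference of 0.51 ± 0.323 was as large as that of Mki67, but it varied from 0.14 in pair 3 to 0.88 in pair 2 and missed the threshold (adjusted p = 0.0651). Racgap1, the partner of Kif23 in centralspindlin, differed by 0.38, 0.27, 0.80 and −0.25 in pairs 1 to 4 (mean 0.30, adjusted p = 0.276). Kif20a, a kinesin that carries the passenger complex to the midzone, differed by 0.57 in pair 1 and by −0.02 to 0.02 in the other pairs. Ect2, the exchange factor that activates RhoA at the cleavage site, had the lowest mean difference of all members. Its values were 7.55, 7.71, 7.80 and 7.39 in knockouts and 7.94, 7.76, 7.63 and 7.93 in wild types, which overlap, and its mean difference of −0.20 had a 95% interval from −0.51 to 0.10. Members of the complexes that cut the cell apart thus covered the whole range of the 38 genes.

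**Figure D3:**
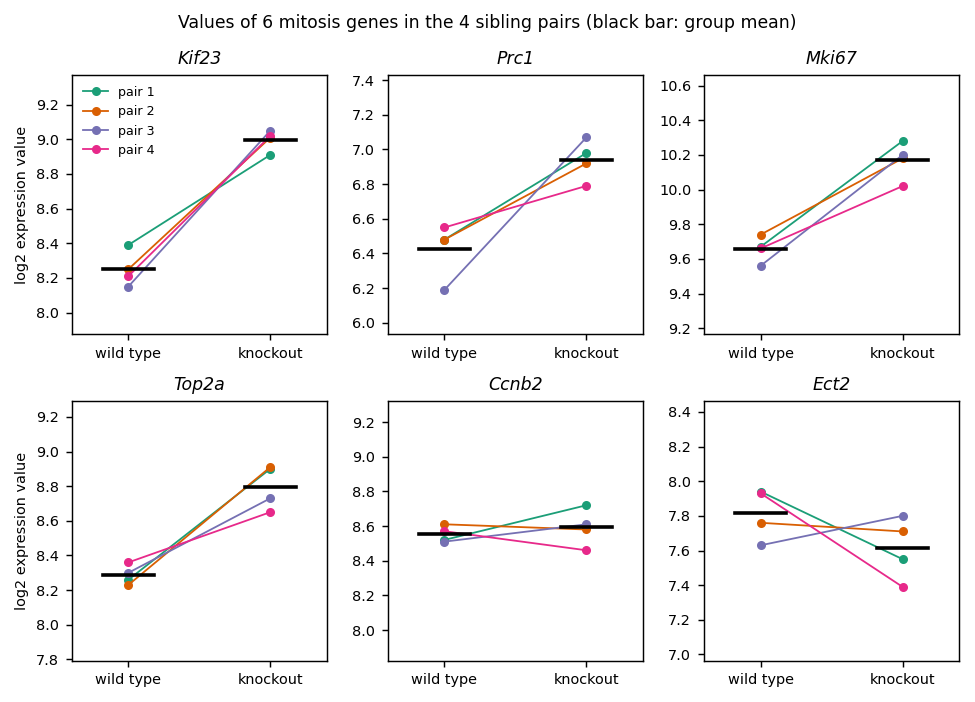
Log2 expression values of 6 mitosis genes in wild types and knockouts, with a line joining the siblings of each pair and a black bar for each group mean (n = 4). Every line rises for Kif23, Prc1, Mki67 and Top2a, while lines of Ccnb2 and Ect2 run in both directions.

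Of the genes of chromosome structure and the chromosomal passenger complex, Mki67 and Top2a rose. Mki67 encodes Ki-67, the coat protein of mitotic chromosomes that is used as a marker of dividing cells. It had 10.28, 10.18, 10.20 and 10.02 in knockouts and 9.67, 9.74, 9.56 and 9.66 in wild types, with no overlap. Its rise was 0.51 ± 0.134 (adjusted p = 0.0235), from 0.36 in pair 4 to 0.64 in pair 3. Top2a, the topoisomerase that untangles sister chromatids, had 8.90, 8.91, 8.73 and 8.65 in knockouts and 8.26, 8.23, 8.30 and 8.36 in wild types. The knockouts were the higher values here too, and the rise of 0.51 ± 0.183 (adjusted p = 0.0321) was larger in pairs 1 and 2 than in pairs 3 and 4.

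The passenger complex joins the kinase Aurkb to Incenp, Birc5 (survivin) and Cdca8 (borealin) and corrects faulty attachments. Aurkb had 8.06, 7.95, 8.11 and 7.95 in knockouts and 7.61, 7.73, 7.47 and 7.62 in wild types. These do not overlap, and the mean difference of 0.41 ± 0.180 lay at the threshold without passing it (adjusted p = 0.0501). Birc5 was higher by a nearly constant 0.28, 0.16, 0.26 and 0.16 (mean 0.21 ± 0.0640, adjusted p = 0.111). Incenp differed by 0.52 and 0.68 in pairs 1 and 2 and by −0.08 and 0.08 in pairs 3 and 4. Cdca8 had a mean difference of 0.04 with a 95% interval from −0.13 to 0.21, so that the largest rise within it is below that seen for Mki67. The intervals of Cdca8, Birc5 and Aurkb overlap, and differences between subunits were not tested.

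Of the 8 measured genes of the entry switch 0 passed the test, where 3.16% of all probe sets were called higher and 2.70% lower. At these shares 0 calls do not set a list this short apart. At an unadjusted p under 0.05 limma found 3 higher (37.5% against 13.2% of all probe sets). The kinase Plk1 had 8.59, 8.43, 8.34 and 8.25 in knockouts and 8.01, 8.15, 8.06 and 8.11 in wild types, a difference of 0.32 ± 0.186 without overlap (adjusted p = 0.0857). Ccna2, cyclin A2, was higher by 0.36, 0.29, 0.47 and 0.05 (mean 0.29, adjusted p = 0.0987). Cdk1, the kinase it activates, differed by 0.52, 0.27, 0.41 and −0.01 (mean 0.30, adjusted p = 0.125). The other genes of the switch were near 0. Cyclin B2, Ccnb2, had 8.72, 8.58, 8.61 and 8.46 in knockouts and 8.52, 8.61, 8.51 and 8.57 in wild types, with a mean difference of 0.04 and a 95% interval from −0.15 to 0.23. The phosphatase genes Cdc25b and Cdc25c had means of −0.02 and 0.05, the kinase gene Aurka 0.09, and Cks2, a small subunit of the Cdk1 complex, 0.00. Cks2 and Cdc25c averaged 5.41 and 5.20 over the 8 arrays, below 5.65, the 95th percentile of the means of 1091 olfactory receptor probe sets, and differences at that level are understated. In pair 4 the knockout was lower for 6 of these 8 genes.

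Among the 12 kinetochore and checkpoint genes 0 passed the test at the adjusted threshold (against 3.16% of all probe sets called higher and 2.70% lower). By limma 3 were higher at an unadjusted p under 0.05 (25% against 13.2% of all probe sets). Ndc80, the microtubule-binding core of the kinetochore, had 6.74, 6.64, 6.52 and 6.54 in knockouts and 6.15, 6.29, 6.31 and 6.26 in wild types. The groups were apart, with a difference of 0.36 ± 0.165 (adjusted p = 0.0612). Its direct partner Nuf2 differed by 0.34, 0.21, −0.19 and −0.37, a mean of 0.00 with an interval from −0.31 to 0.31. The kinetochore motor Cenpe differed by 0.76, 0.27, 0.04 and 0.37 (mean 0.36, adjusted p = 0.120), the checkpoint target and activator Cdc20 by 0.60, 0.33, −0.08 and 0.36 (mean 0.30, adjusted p = 0.155). The kinetochore scaffold protein gene Cenpf (0.15), the checkpoint genes Bub3 (0.14) and Mad2l1 (0.16) were higher in all 4 pairs by small amounts. The centromeric histone gene Cenpa (0.17), the checkpoint kinase genes Ttk (0.17), Bub1 (0.28) and Bub1b (0.12) and the ubiquitin-conjugating enzyme gene Ube2c (0.15) were higher in pairs 1 to 3 and lower in pair 4. Of these, Bub1 ranged most, from −0.37 in pair 4 to 0.84 in pair 2.

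The 6 spindle genes likewise had 0 called (against 3.16% of all probe sets called higher and 2.70% lower). By limma 2 were higher at an unadjusted p under 0.05 (33.3% against 13.2% of all probe sets). Kif4, a chromosome-borne kinesin, had 6.63, 6.46, 6.44 and 6.39 in knockouts and 6.08, 6.22, 6.17 and 6.22 in wild types, and the 2 groups were apart (difference 0.31 ± 0.167, adjusted p = 0.0847). Kif2c, which takes microtubules apart at the centromere, differed by 0.07, 0.59, 0.56 and 0.06 (mean 0.32, adjusted p = 0.148). Kif11, the motor that pushes the poles apart, Tpx2, which brings Aurora A to the spindle, and Nusap1, a microtubule bundler, had means of 0.08, 0.09 and 0.13 and were lower in the knockout of pair 4. Hmmr, a spindle-pole protein, was at 0.76 in pair 3 and between −0.19 and 0.04 elsewhere.

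The 4 pairs did not contribute alike. The knockout was higher for 36 of 38 genes in pair 1, 32 in pair 2, 35 in pair 3 and 19 in pair 4 (94.7%, 84.2%, 92.1% and 50%), where the share among all probe sets was 47.0% to 47.9%. The medians of the 38 differences were 0.36, 0.21, 0.21 and 0.01 in pairs 1 to 4. Pair 4 was lowest in the median of each of the 5 role groups, at −0.11 for the entry switch and 0.23 for the chromosome and passenger genes. Kif23 was the exception among the members with a rise, at 0.81 in pair 4. The RNA integrity number of the knockout minus that of its sibling was 0.9, −0.4, 0.9 and −0.7 in the same order, and the knockout of pair 4 had the lowest number of all, 7.0. With that number as a further term beside the pair, 1 of the 4 rises was left, that of Kif23 (adjusted p = 0.0370). Those of Mki67, Top2a and Prc1 had adjusted p of 0.0515, 0.0781 and 0.0805 with differences of 0.48, 0.50 and 0.47. The further term uses up a degree of freedom, and the fit called 212 of all probe sets higher in place of 702. With sex as the further term Kif23, Mki67 and Prc1 stayed called and Top2a did not (adjusted p = 0.0679). Siblings differed in sex only in pairs 3 and 4, and in opposite directions. The term could therefore not move a mean difference, and it changed only the spread and the degrees of freedom. It left 231 of all probe sets called higher in place of 702, so these calls cannot show a part of sex. The same-sex pairs 1 and 2 alone had a median difference of 0.31, and pairs 3 and 4, whose siblings differ in sex, 0.14. Of the latter, pair 3 had the same median as the same-sex pair 2, 0.21, and pair 4 had 0.01. Over all settings the limma adjusted p ran from 9.61e-05 to 0.145 for Kif23 and 7.09e-04 to 0.208 for Mki67. It ran from 8.72e-04 to 0.226 for Top2a and 0.00286 to 0.274 for Prc1. The lower ends came from the fit without the pair as a block, which treats siblings as independent and gives p-values that are too low. The upper ends came from fits of 2 pairs only, with 1 residual degree of freedom.

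**Figure D4:**
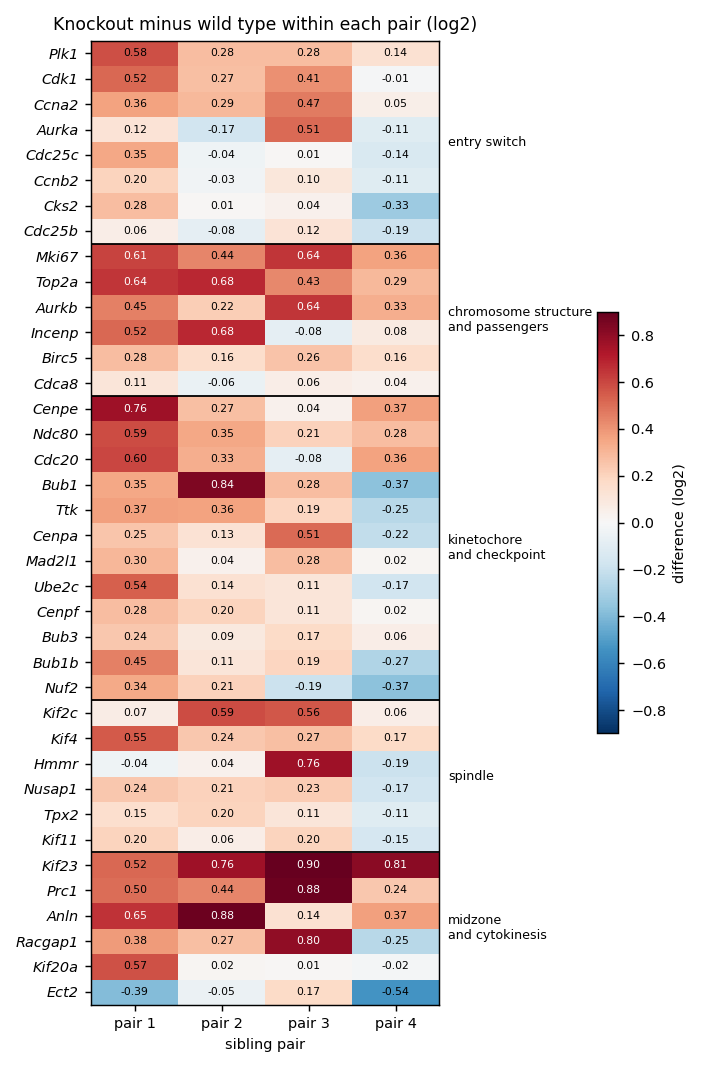
Difference between knockout and wild type (log2) of each of the 38 mitosis genes in each sibling pair, with red for higher and blue for lower in the knockout, grouped by role. Pairs 1 to 3 are red for 32 to 36 genes, and pair 4 for 19.

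Calls were also lost when a pair was left out, which leaves fewer residual degrees of freedom. Over all probe sets the number called higher fell from 702 to 136, 89, 219 and 143 without pair 1, 2, 3 and 4. In these fits the difference lay between 0.70 and 0.82 for Kif23 and between 0.47 and 0.56 for Mki67. It lay between 0.45 and 0.58 for Top2a and between 0.39 and 0.61 for Prc1. Kif23 was still called without pair 1 (adjusted p = 0.0273) or pair 3 (0.0348), and not without pair 2 (0.0626) or pair 4 (0.0504). Mki67, Top2a and Prc1 lost the call when any of the 4 pairs was left out, with adjusted p from 0.0601 to 0.0892, 0.0608 to 0.117 and 0.0785 to 0.135. The number of members called higher was thus 1, 0, 1 and 0 without pair 1, 2, 3 and 4, where 0.612%, 0.401%, 0.986% and 0.644% of all probe sets were called higher. At an unadjusted p under 0.05 limma then found 10, 12, 12 and 18 members higher (26.3%, 31.6%, 31.6% and 47.4%), against 10.6%, 9.55%, 10.5% and 11.1% of all probe sets. Without pair 4 the median difference of the members was 0.27. Without the pair as a block limma called 16 members higher (42.1% against 16.3% of all probe sets) and 0 lower (against 18.1%). That fit treats siblings as independent although most pair differences had already been taken out of the values, so its counts are too high. With the pair as a random block Kif23 (adjusted p = 0.0029) and Top2a (0.0425) stayed called, Mki67 (0.123) and Prc1 (0.0638) did not, and Aurkb (0.0493) and Anln (0.0479) were called. Of all probe sets 1036 were then called higher, in place of 702.

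The test was extended to 119 further genes of mitosis, listed by function with earlier results of these data known, of which 116 had a probe set. Troap and Cenpn rose, Tfdp2 fell, and the calls came to 2 of 116 higher and 1 lower (1.72% and 0.862%, against 3.16% and 2.70% of all probe sets). In all 4 pairs 36 were higher (31.0% against 16.5%), and their median difference was 0.11, which centring on housekeeping genes, with its shift of −0.20, takes below 0. Troap, a spindle-associated protein gene, rose by 0.43 ± 0.102 (adjusted p = 0.0308) and Cenpn, of the inner kinetochore, by 0.49 ± 0.248 (adjusted p = 0.0490). Tfdp2, a dimer partner of E2F factors, fell from 9.77 in wild types to 9.41 in knockouts (difference −0.37 ± 0.108, adjusted p = 0.0445). All of these lost the call when any pair was left out, with adjusted p from 0.0781 to 0.146. The MuvB and E2F partner list had a median difference of 0.12. Of its 12 genes 0 were called higher (against 3.16% of all probe sets) and 1, Tfdp2, lower (8.33% against 2.70%). At an unadjusted p under 0.05 limma found 3 of the 12 higher and 1 lower, against 13.2% and 14.2% of all probe sets.

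The entry regulators, the condensin and cohesion genes and the anaphase-promoting complex, with 12, 20 and 17 genes, held 0 calls. Among all probe sets 3.16% were called higher and 2.70% lower. At an unadjusted p under 0.05 limma found 4, 3 and 5 genes higher (33.3%, 15% and 29.4%, against 13.2% of all probe sets). It found 1, 1 and 2 lower (8.33%, 5% and 11.8%, against 14.2%). Among the entry regulators the inhibitory kinase gene Wee1 had the largest difference (−0.60 ± 0.558, lower in 4 of 4 pairs, adjusted p = 0.118), followed by Cdc25a (0.43 ± 0.204, adjusted p = 0.0521). In the condensin and cohesion list the securin gene Pttg1 (−0.58 ± 0.60, adjusted p = 0.143) and the condensin gene Ncapd2 (0.32 ± 0.158, adjusted p = 0.0767) led. The list of the anaphase-promoting complex, which holds its subunits with the activator Fzr1, the inhibitor Fbxo5 and the conjugating enzyme Ube2s, had a median of −0.01 over 17 genes, led by Anapc1 (0.35 ± 0.135, adjusted p = 0.0548) and Anapc15 (0.32 ± 0.196, adjusted p = 0.0915).

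In the list of G1 cyclins, inhibitors of cyclin-dependent kinases and targets of p53, 1 of 21 genes rose and 3 fell (4.76% against 3.16% of all probe sets, and 14.3% against 2.70%). Cyclin E2, Ccne2, which pairs with Cdk2 at the start of S phase, fell by 1.07 on the log2 scale, with differences of −0.70, −1.30, −0.83 and −1.44 (adjusted p = 0.0158). The antiproliferative gene Btg2 had −0.72 ± 0.293 (adjusted p = 0.0271) and the stress gene Gadd45a −0.39 ± 0.0435 (adjusted p = 0.0300), while Gadd45b, its relative, rose by 0.52 ± 0.0718 (adjusted p = 0.0174). Without pair 2 the adjusted p of Ccne2 was 0.0683, Gadd45b kept its call only without pair 3 (0.0471), and Btg2 and Gadd45a lost theirs whichever pair was left out (0.0598 to 0.108). Of 32 DNA replication genes 3 rose and 0 fell (9.38% against 3.16%): the reductase subunit Rrm2 (0.51 ± 0.152, adjusted p = 0.0264), the polymerase subunit Pole (0.49 ± 0.236, adjusted p = 0.0458) and Uhrf1, which maintains DNA methylation (0.40 ± 0.0340, adjusted p = 0.0279). They too lost the call without any pair (adjusted p from 0.0567 to 0.121). The replication list had medians of 0.31, 0.12, 0.26 and −0.06 in pairs 1 to 4, lowest in pair 4 like the mitosis genes. Of 10 crypt stem cell markers 0 were called (against 3.16% of all probe sets called higher and 2.70% lower). At an unadjusted p under 0.05 limma found 1 higher, Sox9, and 2 lower, Lgr5 and Ascl2 (10% and 20%, against 13.2% and 14.2% of all probe sets). The largest differences were those of Sox9 (0.32 ± 0.175, adjusted p = 0.0812) and of Ascl2 (−0.27 ± 0.179, adjusted p = 0.122), which lies below the background level.

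Other cell types of the tissue also moved between siblings. Among 18 enterocyte markers limma found 8 lower and 0 higher at an unadjusted p under 0.05 (44.4% and 0%, against 14.2% and 13.2% of all probe sets). At the adjusted threshold 3 fell (16.7% against 2.70% of all probe sets) and 0 rose. Of the falls, Lct kept its call without pair 3 or 4 (adjusted p = 0.0327 and 0.0171) and not without pair 1 or 2 (0.0801 and 0.0886), Slc6a19 only without pair 3 (0.041), and Treh lost it whichever pair was left out (0.0696 to 0.107). The list had medians of −0.16, −0.15, −0.19 and −0.42 in pairs 1 to 4, so that the pair with the smallest mitosis difference had the lowest enterocyte median. The mean log2 value of that list ran from 12.3 to 12.5 in knockouts and from 12.6 to 12.9 in wild types. Among 13 B cell and germinal centre markers 12 had a mean difference above 0 (92.3% against 46.4% of all probe sets). Of these markers Cd22 was called higher (7.69% against 3.16% of all probe sets), a call lost without any of the pairs (adjusted p from 0.0692 to 0.131). Their medians were 0.50, 0.46, 0.07 and 0.02, their list means 6.63 to 7.03 in knockouts and 6.42 to 6.65 in wild types, and Pax5 was below the background level. The mitosis medians were 0.36, 0.21, 0.21 and 0.01 in the same order of pairs. T cell markers had medians of −0.20, −0.12, 0.01 and −0.77, and list means of 7.67 to 8.01 in knockouts and 8.04 to 8.33 in wild types. Cd4 alone was called higher among 9 (11.1% against 3.16% of all probe sets, lost without any of the pairs, adjusted p from 0.0878 to 0.146). At an unadjusted p under 0.05 limma found 4 of the 9 lower, Cd3e, Cd3g, Gzma and Gzmb (44.4% against 14.2% of all probe sets), and Cd4 alone higher. Smooth muscle markers had medians of 0.19, 0.02, −0.48 and −0.62, with list means of 9.69 to 10.2 and 10.0 to 10.3. The medians of 9 pancreatic acinar genes were −0.42, 0.23, −3.93 and −3.35 and those of 7 adipose genes 2.08, 1.64, 0.16 and 0.19, in pairs 1 to 4. Plasma cell markers had medians of 0.32, 0.44, 0.11 and 0.05 with 0 of 7 called (against 3.16% of all probe sets called higher and 2.70% lower). By limma 3 of them were higher at an unadjusted p under 0.05 (42.9% against 13.2% of all probe sets). The part of these cell types in the differences of the mitosis genes was not tested.

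**Figure D5:**
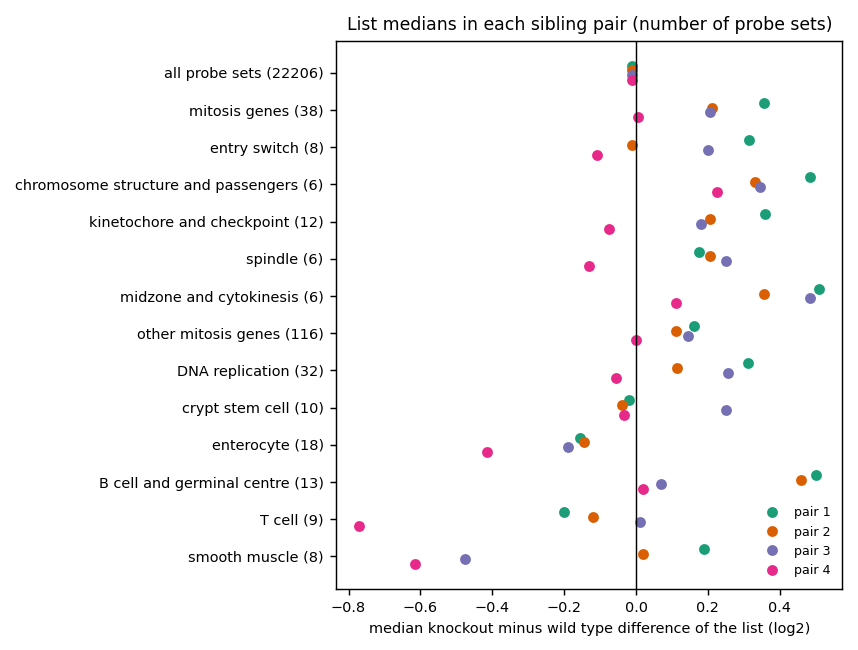
Median difference between knockout and wild type (log2) in each sibling pair, for all probe sets, the 38 mitosis genes, their 5 role groups and other gene lists, with the number of probe sets in brackets. The mitosis medians are 0.36, 0.21, 0.21 and 0.01 in pairs 1 to 4, and pair 4 is also lowest for the replication, enterocyte, B cell, T cell and smooth muscle lists.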

How the data were processed

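RNA of 8 mice (4 knockout, 4 wild type) was measured on 1-colour arrays. The deposited log2 values per probe set were made with RMA and Transcriptome Analysis Console 4.0, per the submitters' processing notes, and no further step of the authors is recorded there. Probe sets were named from the platform annotation, with 19572 of 22206 carrying 1 symbol, and all 19572 gene IDs were found in RefSeq GRCm38.p6. limma 3.58.1 in R 4.3.3 (lmFit, eBayes) was fitted to all probe sets with the sibling pair of the labels as a block, which leaves 3 residual degrees of freedom (6.63 after moderation). Two-sided p-values were adjusted by the Benjamini-Hochberg method, at 0.05. The code was tested on simulated data. The number of arrays limits the precision. The p-values measure the spread between these 4 pairs. The members and lists were chosen with earlier results of these data known. All members could be named, and of other lists the called genes or the 2 with the largest difference. Alternatives were other blocks, covariates, filters, scalings, variance models and thresholds, and each pair left out. No detection calls were used.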

Additional observations from a re-analysis of the deposited data

Results flagged for a closer look

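Of 50 sets of 4 within-pair differences examined (38 mitosis genes and 12 list medians), 2 held a pair far from the other 3 by Dixon's criterion, which chance alone meets in about 1 of 20 sets. Nusap1 differed by −0.17 in pair 4, against 0.24, 0.21 and 0.23 in pairs 1 to 3. Kif20a differed by 0.57 in pair 1, against 0.02, 0.01 and −0.02 in pairs 2 to 4.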

How the results depend on the processing

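The 4 rises among the mitosis genes and 0 falls (2 and 1 among the other mitosis genes) were recomputed under each setting. Without the replicate block limma called 16 and 0 mitosis genes, 37 and 8 others, and 3622 and 4026 of all probe sets (702 and 599 with it). With each pair left out in turn the calls were 0 to 1 among mitosis genes, 0 and 0 among the others, and 89 to 219 higher and 56 to 240 lower over all probe sets. With the random block 8 others were higher (1036 of all higher and 982 lower), with Mki67 (0.123) and Prc1 (0.0638) lost and Aurkb and Anln gained. Sex beside the replicate block left 3 mitosis genes and 0 and 0 others (231 and 233 of all), Top2a losing its call, and RNA integrity left 1, and 0 and 0 (212 and 152). Centring on housekeeping genes gave 1 and 1 mitosis genes, a median of −0.033, 0 and 10 others, and 419 and 5461 of all, 7.13% of calls being higher in place of 54.0%. Centring on epithelial genes gave 6 mitosis genes, 8 and 0 others, and 1122 and 368 of all (75.3% higher). The filter on dim probe sets gave 5 mitosis genes and 7 others higher (819 and 554 of all), and trend and robust variance 6, and 8 others (1135 and 862 of all). A threshold of 0.1 gave 10, and 18 others (1673 and 1631). Pairs 1 and 2 alone gave 0, and 0 and 0 others (0 of all, with 18 mitosis genes at unadjusted p under 0.05 by limma), and pairs 3 and 4 alone 0, and 0 and 0 others (1 and 25, with 4), since 1 residual degree of freedom remained. Quantile normalization and array weights left the 4 mitosis calls in place. None of the 4 rises changed direction in these settings.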
